A study of Mus musculus with 11 samples.

Results

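The transcytosis genes described here are Mfsd2a, Cav1, Cav2, Plvap, Lrp1, Insr and Ager, 7 of the 26921 genes counted in single cells of mouse cerebral cortex. They were taken by name, with earlier results of these data known, and all 7 are in each of the 11 libraries. Cortex of female C57BL/6 mice was dissociated, myelin was removed, and the cells were captured with the 10x 3′ v2 assay, in which a random barcode, the UMI, tells captured RNA molecules apart. The libraries comprised 4 Juvenile libraries (postnatal day 10), 3 Adult libraries (7 to 11 weeks), 2 Aged libraries (18 months) and 2 libraries of mice of 7 to 11 weeks with experimental autoimmune encephalomyelitis (EAE) at the peak of disease. EAE was induced with a myelin oligodendrocyte glycoprotein peptide in Complete Freund's adjuvant and pertussis toxin, whereas the Adult libraries are from healthy mice, so the disease and the adjuvant and toxin cannot be told apart. Each Juvenile and Adult library held pooled tissue of 6 mice and each Aged and EAE library of 3 mice, so a library is a pool and not an animal.

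Brain endothelial cells (ECs) take up little material by vesicles compared with ECs of other organs, and this low rate of transcytosis is one part of the blood-brain barrier. Mfsd2a is a lysophospholipid transporter of the EC membrane that is known to keep caveolar transcytosis low. Cav1 and Cav2 are the membrane proteins of caveolae, the flask-shaped pits from which such vesicles form, and Plvap forms the diaphragm of caveolae and of the fenestrae of leaky capillaries. Lrp1, Insr and Ager are surface receptors that are known to carry ligands across the barrier, namely lipoproteins and amyloid-beta out of the brain (Lrp1), insulin into it (Insr) and amyloid-beta and other ligands into it (Ager).

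The genes lie on 5 chromosomes of GRCm38 (mm10, GENCODE M21). Mfsd2a spans chr4:122946850-122961188 on the minus strand. Cav2 (chr6:17281185-17289115) and Cav1 (chr6:17306335-17341452) are neighbours on the plus strand of chromosome 6, and both lie inside the antisense gene Gm15581. Plvap (chr8:71497765-71511752) overlaps the end of Gtpbp3, which is on the other strand. Lrp1 (chr10:127538161-127621148) overlaps the antisense gene Gm16217, and Insr (chr8:3122061-3279617) overlaps Gm16180 and the pseudogene Vmn2r-ps88. Whether counting used the strand is not stated in the sources used here, so reads of such pairs cannot be told apart. Ager is at chr17:34597862-34600936.

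The 250 bases before the start of Mfsd2a, Cav2 and Cav1 (the first of 2 starts listed for Cav1), the 3 members called lower in EAE in the main tests, are shown from RefSeq (GRCm38.p6), 5′ to 3′ on the strand of the gene. RefSeq promoters were matched for 5 of the 7 members, not for Plvap and Insr. Capitals mark matches on either strand to GGGCGG (the GC box), to CCAAT (the box of that name), to TATAAA (the TATA box) and to CTTTGA (a TCF/LEF core).
Mfsd2a, chr4:122961189-122961438, minus strand: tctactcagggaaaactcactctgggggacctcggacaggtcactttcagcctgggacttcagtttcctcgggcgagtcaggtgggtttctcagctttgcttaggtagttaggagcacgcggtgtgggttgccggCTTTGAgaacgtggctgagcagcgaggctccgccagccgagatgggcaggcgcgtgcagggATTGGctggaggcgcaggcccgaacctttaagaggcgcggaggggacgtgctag
Cav2, chr6:17280935-17281184, plus strand: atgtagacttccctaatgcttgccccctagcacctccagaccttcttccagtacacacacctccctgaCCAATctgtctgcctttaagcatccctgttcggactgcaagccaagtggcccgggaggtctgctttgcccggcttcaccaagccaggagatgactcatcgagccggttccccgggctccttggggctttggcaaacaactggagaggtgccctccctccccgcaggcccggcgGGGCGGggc
Cav1, chr6:17306085-17306334, plus strand: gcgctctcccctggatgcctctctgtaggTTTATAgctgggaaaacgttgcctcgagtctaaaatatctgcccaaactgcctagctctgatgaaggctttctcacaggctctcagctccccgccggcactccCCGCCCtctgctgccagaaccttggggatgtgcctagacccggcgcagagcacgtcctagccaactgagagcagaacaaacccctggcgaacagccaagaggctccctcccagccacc
CCAAT was found before Mfsd2a and Cav2 and the GC box before Cav2 and Cav1, while 33.8% and 32.7% of all 32851 promoters of this length held these letters. The TCF/LEF core, which 13.8% of promoters held, was found before Mfsd2a, and TATAAA, held by 12.4%, before Cav1. The TATAAA match lies on the strand opposite to Cav1, near the end of the window that is far from its start. CCGGAAG (ETS, 6.91% of promoters) and GTAAACA (forkhead, 3.17%) had no match in these windows. A match is a run of letters and not a shown binding site.

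Of 54646 barcodes 50625 passed the filters, and 21165 of them were named ECs, with a median of 2822 UMIs. Libraries held 15755504 to 34326349 UMIs in all. The 8 EC markers (such as Cldn5 and Cdh5) summed to 14040 to 19430 CPM (share of all UMIs, in UMIs per 1e6) in Juvenile and 25880 to 28530 CPM in other ECs, and to at most 6663 CPM in the other named cell types. By a chi-square of EC counts per gene, Adult 2 and 3 (1.45), Juvenile 1 and 2 (2.83) and Juvenile 3 and 4 (2.59) were far closer to each other than other pairs of their conditions (13.9 to 36.1), and their UMIs were summed, which left 8 units, 2 per condition. The 2 EAE libraries (2.08) and the 2 Aged libraries (2.81) were as close as the pairs that were summed. They were kept as 2 units each, and results for them are also given with each pair summed to 1 unit (6 units). Fits with 11 libraries, also cited below, count all near-identical libraries as separate samples. Fits without Adult 1 leave 1 Adult unit, and those without Adult 1 and Juvenile 1 and 2 also leave 1 Juvenile unit. Values are mean CPM ± SD over 2 units unless stated, and p-values measure the spread between these units, which may be technical. Tests are edgeR quasi-likelihood tests on summed UMIs, adjusted over all genes (Benjamini-Hochberg) and called at 0.05, and fold changes are relative to TMM scaling. TMM moved the median gene by 0.14 (EAE) and 0.11 (Juvenile) on the log2 scale against plain CPM. Adult is the control of all 3 comparisons, so these share control libraries.

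RNA of other cells was present in ECs and differed between conditions. The 6 choroid plexus markers summed to 21180 to 52520 CPM in Adult ECs and to 4322 to 9463 CPM in the others, with the highest value in Adult 1. The 8 mural markers summed to 76.4 to 207 CPM in Adult and to 29.8 to 78.8 CPM elsewhere, and the 5 monocyte and macrophage markers to 111 to 128 CPM in EAE and at most 54.6 CPM elsewhere. The 4 neutrophil markers summed to 184 to 254 CPM in EAE and Aged, 30.15 to 39.0 CPM in Adult and at most 6.84 CPM in Juvenile ECs. Red cell markers ranged from 1173 to 22120 CPM. The part of these RNAs in the results below was not tested.

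Mfsd2a was highest in Juvenile ECs and lowest in EAE ECs. Its level was 605, 602, 808 and 797 CPM in Juvenile 1 to 4, 380.5, 373 and 364 CPM in Adult 1 to 3, 285 and 290 CPM in Aged 1 and 2, and 213 and 218.5 CPM in EAE 1 and 2. The conditions did not overlap in any pair. Against Adult, Mfsd2a was 2.04-fold higher in Juvenile ECs (log2 fold change 1.03, SE 0.16, adjusted p = 0.00071) and 1.56-fold lower in EAE ECs (−0.64, SE 0.16, adjusted p = 0.0161). With the near-identical EAE pair as 1 unit the EAE value was −0.56 and was not called. The Aged difference was not called (−0.40, SE 0.16, adjusted p = 0.18).

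**Figure D1:**
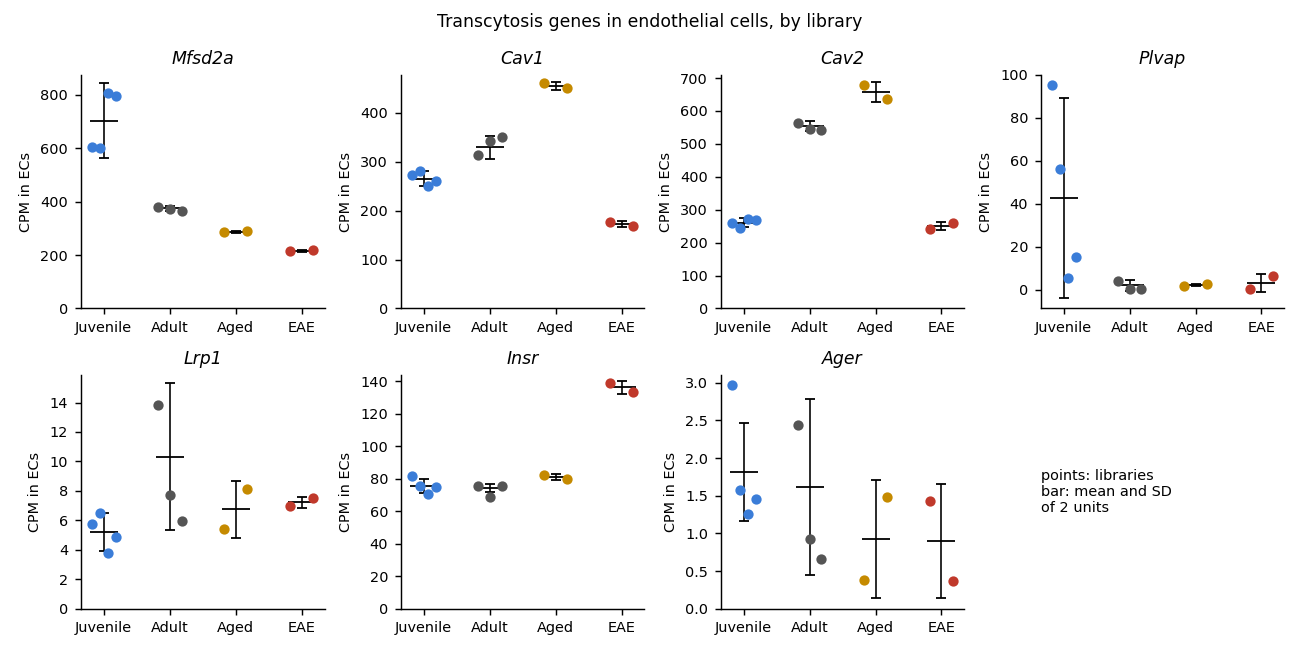
Level of each transcytosis gene in ECs, in CPM on a linear axis of its own, for the 11 libraries (points) by condition, with the mean and SD of the 2 units of each condition (bars). Mfsd2a falls from 602 to 808 CPM in the Juvenile libraries to 213 and 218.5 CPM in the EAE libraries, and Insr is highest in EAE.

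Both caveolins were lower in EAE than in Adult. Cav1 was at 329 ± 23.4 CPM in Adult, 456 ± 7.9 in Aged, 266 ± 15.1 in Juvenile and 173 ± 6.2 CPM in EAE ECs, and EAE 1 and 2 (177 and 168 CPM) lay below every other library. In EAE Cav1 was 1.71-fold lower than in Adult (log2 −0.78, SE 0.11, adjusted p = 0.00079). With the EAE pair as 1 unit this value was −0.70 and was not called. In Aged ECs Cav1 was 1.37-fold higher (0.45, SE 0.11, adjusted p = 0.0478), and in Juvenile ECs the difference was not called (−0.20, SE 0.11, adjusted p = 0.168). The Juvenile difference was called with 11 libraries (−0.26, adjusted p = 0.00771) and with the replicate block over them (0.0263). Both fits count near-identical libraries as separate samples. Without Adult 1 the difference was −0.31, and without Adult 1 and Juvenile 1 and 2 it was −0.30, each with 1 Adult unit left.

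Cav2 was low at both P10 and in EAE. Its mean was 555 ± 14.2 CPM in Adult and 657 ± 31.1 CPM in Aged ECs, against 261 ± 12.3 CPM in Juvenile and 251 ± 11.9 CPM in EAE ECs. The 4 Juvenile libraries (244 to 270.5 CPM) and the 2 EAE libraries (242 and 259 CPM) all lay below the Adult libraries (544 to 565 CPM). Against Adult the gene was 1.96-fold lower in Juvenile (log2 −0.97, SE 0.12, adjusted p = 0.000202) and 1.99-fold lower in EAE (−0.99, SE 0.12, adjusted p = 0.000359). With the EAE pair as 1 unit the EAE value was −0.92 and was not called. The Aged difference was 0.23 (SE 0.12, adjusted p = 0.293).

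Insr rose in EAE. It was at 139 and 133 CPM in EAE 1 and 2 and at 68.9 to 82.1 CPM in the other 9 libraries, with no overlap. The EAE value was 2.05-fold that of Adult (log2 1.04, SE 0.10, adjusted p = 6.93e-05). For no other member was a rise called in EAE, except Plvap with no filter on low counts (1.49, SE 0.35, adjusted p = 0.000228), which rests on EAE 2: with the filter the log2 difference was −2.15 without that library. Juvenile (0.15, SE 0.10, adjusted p = 0.27) and Aged ECs (0.12, SE 0.10, adjusted p = 0.531) were not called.

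The other receptors and Plvap had few UMIs in ECs. Lrp1 was at 5.21 ± 1.31 CPM in Juvenile, 10.3 ± 5.0 in Adult, 6.76 ± 1.94 in Aged and 7.24 ± 0.38 CPM in EAE ECs, and no comparison was called (adjusted p = 0.109, 0.422 and 0.622 for Juvenile, Aged and EAE), except Juvenile with no filter on low counts (−0.78, adjusted p = 0.0267). The Adult mean was carried by Adult 1 (13.85 CPM, against 7.69 and 5.949 CPM in Adult 2 and 3). Without it the log2 difference went from −0.79 to −0.33 in Juvenile and from −0.53 to −0.0095 in Aged ECs, and in EAE it changed direction, from −0.25 to 0.265. Ager had 97 UMIs in all ECs, between 0.37 and 2.965 CPM per library and a call in no condition (adjusted p = 0.633, 0.771 and 0.765). What difference could be detected at this depth was not tested. Plvap was at 2.27 ± 2.55 CPM in Adult and 42.7 ± 46.4 CPM in Juvenile ECs (log2 5.05, SE 1.70, adjusted p = 0.0709). This was called with 11 libraries (0.0239, with the replicate block 0.0203), with DESeq2 (0.0398), with no filter (2.56e-62) and without Juvenile 3 (0.0406). Its size also moved, to 6.52 without Adult 1, 3.70 without ECs with fenestrated markers and 3.92 without ECs of clusters with markers of another cell type, and these were not called. ECs with fenestrated markers held 809 of the 1027 Plvap UMIs of ECs, and ECs of clusters with markers of another cell type held 782. Leaving out either group lowers Plvap by construction. Plvap is described with the cells that held it below.

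Of the 7 members 4 were called in EAE, 1 higher and 3 lower, where 24% of the 14168 genes tested were called. In Juvenile ECs 2 of 7 were called (35.3% of all genes), and in Aged ECs 1 of 7 (3.62%). With the EAE pair as 1 unit (6 units), Insr remained called (log2 1.11, adjusted p = 0.00873), but Mfsd2a (log2 −0.56, adjusted p = 0.3), Cav1 (−0.70, 0.138) and Cav2 (−0.92, 0.0711) did not, and over all genes calls fell from 3398 to 632. Mfsd2a in EAE was also not called without EAE 1 (adjusted p = 0.137) or without EAE 2 (0.12). The Aged call of Cav1 was lost with 6 units (adjusted p = 0.688), where 2 genes in all were called, and without any of Adult 1 (0.0546), Adult 2 (0.0562), Aged 1 (0.369), Aged 2 (0.24), EAE 1 (0.144), EAE 2 (0.145) or Juvenile 1 (0.0519). Without Adult 1 and Juvenile 1 and 2, left out after the data were seen because they stood apart from the other libraries of their conditions, Cav1 (0.40, adjusted p = 1.1e-06), Cav2 (0.28, 0.000559) and Mfsd2a (−0.35, 2.94e-06) were called in Aged ECs, with 1 Adult unit left and a spread that came from the near-identical EAE and Aged pairs alone. In that fit 4267 genes in all were called in Aged ECs, 6619 in EAE and 7209 in Juvenile.

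**Figure D2:**
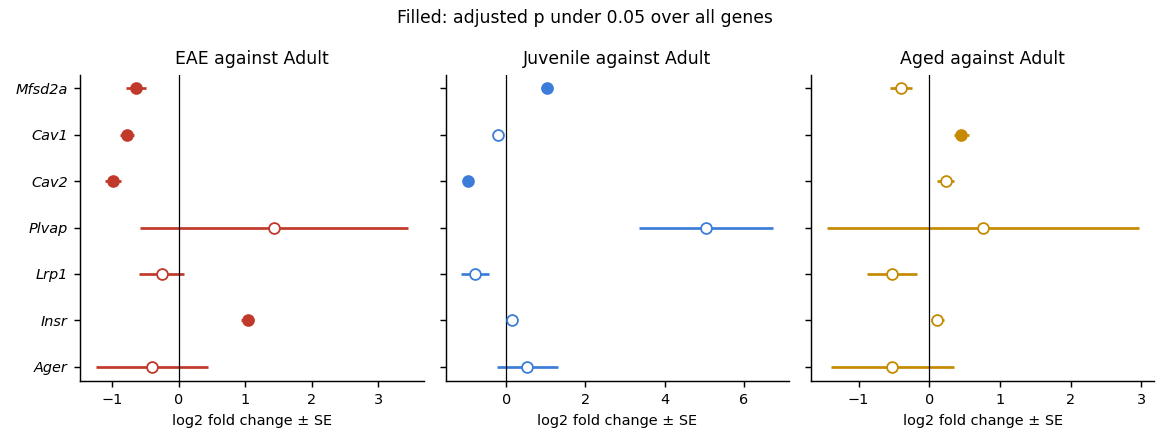
Log2 fold change of each gene against Adult in ECs (points) with its standard error (lines), for EAE, Juvenile and Aged, where filled points have an adjusted p under 0.05 over all genes. In EAE, Mfsd2a, Cav1 and Cav2 are filled to the left of 0 and Insr to the right (1.04), while Plvap and Ager have wide errors.

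Genes that act with the members were taken from 5 lists. Of all genes tested 12.9% rose and 11.1% fell in EAE, 19.1% and 16.2% in Juvenile and 1.53% and 2.09% in Aged ECs. Of 10 tested genes of the caveolar coat, 3 rose and 2 fell in EAE (median log2 0.14, all genes −0.02). The cavin gene Prkcdbp rose (0.80, SE 0.13, adjusted p = 0.00242), while Ehd2, an ATPase of the caveolar neck, fell (−0.77, SE 0.12, adjusted p = 0.00199). In Juvenile ECs 1 coat gene rose and 3 fell (median −0.22, all genes −0.02), with Sdpr, which shapes caveolae, at 204 against 485.5 CPM (−1.13, SE 0.16, adjusted p = 0.00054) and the recycling gene Ehd1 higher (0.72, adjusted p = 0.000459). In Aged ECs 1 coat gene was called, Prkcdbp (0.71, SE 0.13, adjusted p = 0.0228), and it was not called with 6 units (0.421) or without Aged 1 (0.265), Aged 2 (0.137), EAE 1 (0.0584) or EAE 2 (0.0589).

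Of 13 other receptors and transporters of the EC surface, 5 rose and 4 fell in Juvenile (median −0.47, all genes −0.02). Tfrc, the transferrin receptor, was at 805 CPM in Juvenile and 181 CPM in Adult ECs (2.26, SE 0.16, adjusted p = 6.52e-06), whereas the IGF receptor Igf1r was at 131 and 335 CPM (−1.23, SE 0.16, adjusted p = 0.000294). In EAE 1 receptor rose and 3 fell (median −0.01), with Tfrc lower (−0.94, SE 0.16, adjusted p = 0.00254) and Igf1r higher (0.72, SE 0.16, adjusted p = 0.0104). In Aged ECs 1 of 13 was called, Igf2r, which was lower (−0.98, SE 0.20, adjusted p = 0.0304) and which is named after its value was seen.

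Of 13 clathrin coat genes 3 rose and 3 fell in EAE (median 0.08), with the adaptor Picalm higher (0.71, SE 0.11) and the AP-2 subunit gene Ap2a2 lower (−0.72, SE 0.11). In Juvenile 4 rose and 2 fell (median 0.06), led by the cargo adaptor Dab2 (1.09, SE 0.11, adjusted p = 5.03e-05) and Ap2s1 (0.76, SE 0.12). Of 16 genes of vesicle traffic 4 rose and 1 fell in EAE (median 0.16), with the early endosome GTPase Rab5c (0.63) and the SNARE gene Vamp8 (0.62) higher. In Juvenile 3 rose, led by Snap23 (0.69), and 2 fell, with Vamp8 lower (−0.51). Of 4 tested ligands and partners, Hmgb1, a ligand of Ager, fell in EAE (−0.52, adjusted p = 0.00746) and Apoe, a ligand of Lrp1, in Juvenile ECs (−0.90, adjusted p = 0.00772). In Aged ECs none of these clathrin, traffic and partner genes was called by edgeR, while 3 clathrin genes (Dab2, Epn2, Hip1), 4 traffic genes (Rab11a, Rab4a, Rab5c, Snx2) and 1 partner (Apoe) had an unadjusted p under 0.05. The 9 list genes named for EAE were not called with 6 units (adjusted p from 0.0617 to 0.311), and without EAE 1 or EAE 2 neither were Hmgb1 (0.104 and 0.0969), Igf1r (0.0781 and 0.0677) and Vamp8 (0.0788 and 0.0678), nor Rab5c without EAE 1 (0.0549) and Tfrc without EAE 2 (0.0505). With 6 units Apoe (0.0518) and Vamp8 (0.0884) were not called in Juvenile. Without ECs with 2 markers of another type, which keeps 0% to 40% of the ECs of a library, Snap23 (0.105), Vamp8 (0.389) and Apoe (0.0785) in Juvenile and Ehd2 (0.106), Hmgb1 (0.292), Igf1r (0.233) and Rab5c (0.0519) in EAE were not called.

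ECs were placed along the arterial to venous axis by clusters named from markers that hold none of the members or list genes. They were arterial ECs (712 cells), capillary ECs of the arterial side (CapA, 4057), capillary ECs named for markers of the venous side (CapV, 6787) and 1 cluster at the venous end (382). Among the 10 leading genes of the last cluster 4 are markers of reactive endothelial venules (REVs) and 1 is a venous marker, so it is called venous/REV here. The name CapV follows the CapV markers alone. Its larger cluster, 62.5% to 70.7% of CapV cells per condition, scored 0.81 for CapV, 0.19 for CapA and −0.29 for venous markers. The other scored 1.46, −0.5 and 1.08. Both clusters of unplaced capillary ECs (33.7% of ECs) scored highest of the axis names for CapV (0.41 and 0.48). These scores lay under the limit of 0.5 for a name, so the cells were not used on the axis. Also left off it were mitotic ECs (262), clusters with markers of another cell type (453) and clusters that scored highest for tip or inflammatory markers (1375). The last made up 10.1% of EAE and 3.67% of Adult ECs, and mitotic cells 8.30% of Juvenile and 0.04% of Adult ECs. The tip or inflammatory group included a cluster led by Ifit3, Isg15 and Ifit1 that scored 0.24 for inflammatory and 0.23 for CapA markers. It held 651 cells before mitotic ECs were taken out. Tests of all ECs include all cells left off the axis. Adult 1 held too few venous/REV cells (5) to enter on the axis. Its arterial sum, which is 1 of the 2 Adult units there, held only 13 cells and 65371 UMIs. Some cells changed cluster with the arithmetic settings of the clustering, and some calls changed with them. Not all of these were close to the threshold, since the Plvap call for CapA against arterial ECs (adjusted p = 0.00606) was among them.

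Mfsd2a was a gene of the capillaries. Its mean over units was 49.1 ± 40.9 CPM in arterial ECs, 511 ± 355 in CapA, 414 ± 219 in CapV (n = 8 units each, of all conditions) and 54.4 ± 17.2 CPM in venous/REV ECs (n = 7). In every unit both capillary values were above both others. Within units the gene was 10.4-fold higher in CapA than in arterial ECs (log2 3.38, SE 0.16, adjusted p = 2.67e-19) and 6.77-fold lower in venous/REV than in CapV ECs (−2.76, SE 0.16, adjusted p = 3.19e-15). CapV and CapA (−0.20, SE 0.11, adjusted p = 0.265) and the 2 ends of the axis (0.42, SE 0.21, adjusted p = 0.132) were not called apart. At resolution 0.9 of the clustering CapV was called lower than CapA (−0.46, adjusted p = 0.00164), and the ends were called apart without Juvenile 1 (0.63, adjusted p = 0.019) and without Adult 1 and Juvenile 1 and 2 (0.71, adjusted p = 0.0223). The sizes depended on how cells were placed. With each library split by score into 4 bins of equal cell number, in place of clusters, the step into the capillaries was 0.25 (SE 0.08, adjusted p = 0.0218), the step out of them −0.54 (SE 0.08, adjusted p = 1.48e-05), and the venous-end bin was lower than the arterial-end bin (−0.54, adjusted p = 6.21e-07). The arterial and venous/REV clusters held 3.4% and 1.8% of ECs, so these end bins are mostly other ECs. Subtype names given with score bins stand for these bins and not for the clusters. Within CapV the level differed between its 2 clusters. ECs of the one with high Slc38a5 and Tmsb10, 29.3% to 37.5% of CapV cells per condition, held 264 CPM in Adult, 184 in Aged, 106 in EAE and 372 CPM in Juvenile, against 466, 395, 283 and 1013 CPM in the other.

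**Figure D3:**
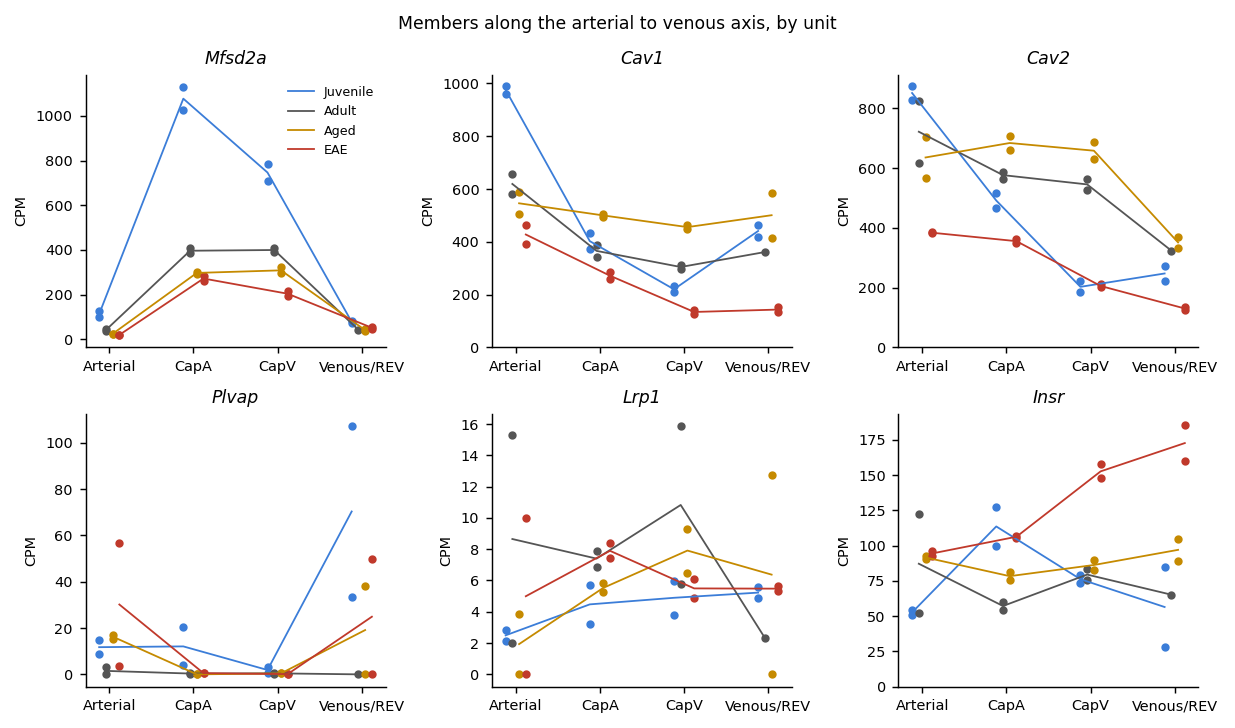
CPM of 6 members in arterial, CapA, CapV and venous/REV ECs, by unit (points), with lines through the mean of each condition. Mfsd2a is high in both kinds of capillary ECs (up to 1130.0 CPM) and low at both ends, Cav1 is highest in arterial ECs in each condition mean and Cav2 in all but Aged (636 CPM in arterial and 684 CPM in CapA ECs), and Ager is not shown because it did not pass the filter on low counts.

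Cav1 and Cav2 were highest at the arterial end. Cav1 was at 642 ± 222 CPM in arterial, 385 ± 90.1 in CapA, 279 ± 127 in CapV and 362 ± 164 CPM in venous/REV ECs. It fell from arterial to CapA ECs (−0.72, SE 0.17, adjusted p = 0.00212) and from CapA to CapV (−0.52, SE 0.16, adjusted p = 0.0268), and was lower in venous/REV than in arterial ECs (−0.87, SE 0.19, adjusted p = 0.000957). The CapV call was lost without EAE 1 (0.0853) or EAE 2 (0.0872), without Adult 1 and Juvenile 1 and 2 (0.109), at resolution 0.9 (0.127), with no block (0.53), in score bins (0.655) and without ECs with 2 markers of another type (0.268). Without those ECs the calls against arterial ECs were also lost for CapA (−0.62, SE 0.33, adjusted p = 0.281) and venous/REV ECs (−0.95, SE 0.70, adjusted p = 0.553), with fewer cells and larger errors. Cav2 was at 648 ± 195, 527 ± 129.9, 403 ± 218 and 255 ± 97.1 CPM in the same order and 2.45-fold lower in venous/REV than in arterial ECs (−1.29, SE 0.20, adjusted p = 1.59e-05). Its steps to CapA (−0.30, adjusted p = 0.221), from there to CapV (−0.48, adjusted p = 0.0502) and on to venous/REV ECs (−0.52, adjusted p = 0.0525) were not called. The CapV step was called with 11 libraries (0.0057), with DESeq2 (0.0386) and on leaving out any 1 of 8 libraries (0.0246 to 0.0497), the venous/REV step with no filter on low counts (4.53e-06), without Adult 1 and Juvenile 1 and 2 (0.0275) and without Juvenile 3 (0.0344), and the CapA step without ECs with 2 markers of another type (−0.52, adjusted p = 0.0137). Cav1 was called higher in venous/REV than in CapV ECs with 11 libraries (0.45, adjusted p = 0.0198).

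Insr was at 81.5 ± 26.1 CPM in arterial, 88.9 ± 25.2 in CapA, 98.7 ± 33.8 in CapV and 103 ± 54.2 CPM in venous/REV ECs, and neither the single steps (adjusted p from 0.491 to 0.702) nor the 2 ends (0.49, SE 0.22, adjusted p = 0.111) were called. The ends were called apart with no filter (0.0324), without ECs with fenestrated markers (0.0463) and without Juvenile 3 (0.0329). Lrp1, at 3 UMIs or fewer in each arterial and venous/REV sum, was not called either (adjusted p from 0.114 to 0.954). Members called on the steps were 3 of 6 for CapA against arterial (27.4% of 10113 genes), 1 for CapV against CapA (17.2%), 2 for venous/REV against CapV (23.8%) and 2 for venous/REV against arterial ECs (26.8%). Plvap is among those called on the first and the third of these and is described below.

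Of 11 tested receptors 7 rose and 2 fell from arterial to CapA ECs (median 1.31), where 13.3% of all genes rose and 14.2% fell (median 0.03). From CapV to venous/REV ECs 7 fell and 1 rose (median −0.85), against 11.2% and 12.6% of all genes (median −0.01). Lrp8, a receptor for apolipoprotein E, was at 11.9 CPM in arterial and 114 CPM in CapA ECs (3.23, SE 0.18, adjusted p = 1.99e-17) and fell from CapV to 40.1 CPM in venous/REV ECs (−1.74, SE 0.15). Igf1r rose from 35.4 to 252 CPM (2.65, SE 0.15) and fell from CapV to venous/REV ECs (−1.22, SE 0.13). Tfrc rose from CapA to CapV (1.33, SE 0.22, adjusted p = 9.39e-05), as did Slc3a2 (0.54, SE 0.13), and both Tfrc (2.58, SE 0.38) and Igf1r (1.93, SE 0.18) were higher in venous/REV than in arterial ECs.

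Of 9 tested genes of the caveolar coat 5 fell and 2 rose from arterial to CapA ECs (median −0.62), and 5 fell and none rose from CapA to CapV (median −0.48), where 8.46% of all genes fell and 8.74% rose. Ehd4 went from 440.3 to 123 CPM (−1.84, SE 0.18, adjusted p = 4.03e-08) and on to 73.7 CPM (−0.75, SE 0.18), Ehd1 fell from 166 to 82.1 CPM (−1.05, SE 0.12) and Ehd2 from 170.4 to 89.4 CPM at the CapV step (−0.89, SE 0.19). From CapV to venous/REV ECs 3 rose and none fell, led by Prkcdbp (0.91, SE 0.18) and Ehd1 (0.76, SE 0.14). Venous/REV ECs held less Ehd4 (−1.99, SE 0.22) and Ehd2 (−1.31, SE 0.25) than arterial ECs.

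Of 13 clathrin genes 4 rose from arterial to CapA ECs, led by Dab2 (0.58, SE 0.14) and Ap2a2 (0.54, SE 0.13), and at the CapV step Cltb fell (−0.46, SE 0.10) and Hip1 rose (0.27, SE 0.09, not called with 6 units, 0.0961, or without Aged 1 (0.0541), Aged 2 (0.0634), EAE 1 (0.0515) or Juvenile 4 (0.0573)). From CapV to venous/REV ECs 2 of the 13 rose, Dab2 (0.62, SE 0.12) and Cltc (0.51, SE 0.12), and 1 fell. Against arterial ECs 3 were higher in venous/REV ECs, among them Dab2 (1.47, SE 0.15) and Cltc (0.64, SE 0.14), and 1 lower, where 13.5% of all genes rose and 13.3% fell. Of 16 traffic genes 4 rose from arterial to CapA ECs, among them Snx1 (0.48) and Vamp3 (0.46). In venous/REV ECs Eea1, an early endosome tether, was higher than in CapV (0.995, SE 0.17) and Vamp3 lower (−0.67, SE 0.11), and against arterial ECs Vamp3 was lower (−0.39, not called without Adult 2 (0.0638) or EAE 2 (0.0539)). Among the partners Apoe was higher in CapA (0.60, SE 0.15) and venous/REV ECs (0.98, SE 0.16) than in arterial ECs, and Lrpap1, the chaperone of Lrp1, lower (−0.31, SE 0.09 and −0.54, SE 0.11). Of the calls named on the axis for list genes, those lost in score bins were Tfrc, Ehd2, Ehd4 and Cltb (CapV against CapA, adjusted p = 0.0855, 0.851, 0.955 and 0.737), Dab2, Snx1 and Lrpap1 (CapA against arterial, 0.45, 0.491 and 0.237), Lrp8, Prkcdbp, Dab2, Cltc and Eea1 (venous/REV against CapV, 0.127, 0.0929, 0.274, 0.292 and 0.625) and Lrpap1 (venous/REV against arterial, 0.0544). At resolution 0.9 Slc3a2 (0.145) and Hip1 (0.39) were lost. With no block the calls of Apoe, Dab2 and Lrpap1 (CapA against arterial), Cltb, Hip1, Slc3a2 and Tfrc (CapV against CapA), Dab2 and Igf1r (venous/REV against CapV) and Vamp3 (venous/REV against arterial) were lost (adjusted p from 0.0515 to 0.545). With no filter those of Lrpap1 (CapA, 0.361), Hip1 (0.0695) and Vamp3 (venous/REV against arterial, 0.0613) were. Without ECs with 2 markers of another type 15 calls of these genes were lost, 3 for CapA against arterial, 1 for CapV against CapA, 5 for venous/REV against arterial and 6 for venous/REV against CapV. In score bins Ap2a2, Vamp3 and Apoe (CapA against arterial), Apoe (venous/REV against arterial), Hip1 and Slc3a2 (CapV against CapA) changed direction, as did, without ECs with 2 markers of another type, Lrpap1 (CapA against arterial) and Vamp3 (venous/REV against arterial).

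The conditions were also compared within each subtype. In CapV ECs in EAE 4 of 5 members were called (23.2% of 11830 genes), with Cav1 at 143 and 125 CPM in EAE against 295 and 314 CPM in the Adult units (−1.03, SE 0.12, adjusted p = 4.49e-05), Cav2 lower (−1.25, SE 0.13), Mfsd2a lower (−0.82, SE 0.12) and Insr higher (1.07, SE 0.11). In venous/REV ECs 3 of 5 were called (9.06% of 7594 genes), with an Adult arm of 1 unit, so that the error comes from the spread within the other conditions. Cav1 was at 154 and 133 CPM in EAE and at 361 CPM in the single Adult unit (−1.24, SE 0.24, adjusted p = 0.00036), Cav2 was lower (−1.22, SE 0.25) and Insr higher (1.49, SE 0.35, not called by DESeq2, adjusted p = 0.166). Mfsd2a in venous/REV ECs was at 56.2 and 46.2 CPM in EAE (30 and 26 UMIs) and at 42.0 CPM in the Adult unit (18 UMIs). With so few UMIs and 1 Adult unit no direction is drawn. In the venous-end score bin, which is mostly other ECs, Mfsd2a was lower in EAE. CapA ECs had calls for Cav2 (−0.62, SE 0.12), Mfsd2a (−0.47, SE 0.12, adjusted p = 0.0134) and Insr (1.004, SE 0.16), 3 of 5 members (16.4% of 10509 genes), and arterial ECs for Cav2 (−0.73, SE 0.21), 1 of 4 members (7.08% of 6427 genes). Cav1 in CapA was at −0.36 (SE 0.12, adjusted p = 0.0556) and was called with 11 libraries (0.0243), at resolution 0.9 (0.0495), in score bins (−0.88, adjusted p = 0.000125), without ECs with fenestrated markers (0.0444), without Adult 1 and Juvenile 1 and 2 (1.61e-05) and without Adult 1 (0.0143), Adult 2 (0.0484) or Juvenile 4 (0.049). Insr in arterial ECs was called without Adult 1 and Juvenile 1 and 2 (0.91, adjusted p = 0.0307) and in score bins (1.06, adjusted p = 0.000622). The CapA call of Cav2 was lost with 6 units (adjusted p = 0.181) and without EAE 1 (0.0639), and that of Mfsd2a with 6 units (0.396) and without Aged 1 (0.0638), Aged 2 (0.0633), EAE 1 (0.128) or EAE 2 (0.271). The arterial one was lost with 6 units (0.521), with DESeq2 (0.0978) and without Aged 1 (0.111), Aged 2 (0.103), EAE 1 (0.285) or EAE 2 (0.247), and that of Mfsd2a in CapV with 6 units (0.0542). Without ECs with 2 markers of another type the CapA calls of Insr (0.243) and Mfsd2a (0.353) and the arterial call of Cav2 (0.291) were lost, the last also with no filter (0.115).

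The difference between the ends of the axis was itself tested. In EAE edgeR called 0 of 6 members (1.69% of 11699 genes), with 2 at an unadjusted p under 0.05 and 1, Cav1, called by DESeq2 (adjusted p = 0.0278). Cav1 was also called with 11 libraries (0.0187), over 1000 genes per cell (0.0472), in score bins (3.04e-06), without ECs with fenestrated markers (0.0465) and without Adult 1 (0.0411), Juvenile 1 (0.0396) or Juvenile 2 (0.0447). The difference of log2 fold changes, venous/REV minus arterial, was −0.74, SE 0.23, adjusted p = 0.0713 for Cav1, 1.33, SE 0.58, adjusted p = 0.377 for Mfsd2a, −0.47, SE 0.24, adjusted p = 0.488 for Cav2 and 0.78, SE 0.40, adjusted p = 0.501 for Insr. In score bins the Mfsd2a difference had the other direction and was called (−0.41, adjusted p = 0.00756). The venous/REV Adult value in these differences is 1 unit. On simulated data of this comparison 0% of differences of 1 on the log2 scale were recovered, while the real fit called 198 genes. The simulation used the same dispersion for all genes around 1 pooled profile, so it does not give the recovery in these data. A member that was not called may still differ.

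In Juvenile ECs Mfsd2a was higher in arterial (1.52, SE 0.32, adjusted p = 0.000809, not called by DESeq2, adjusted p = 0.202), CapA (1.46, SE 0.12, adjusted p = 7.34e-08) and CapV ECs (1.02, SE 0.12, adjusted p = 3.41e-05). The venous/REV value was 0.87, SE 0.42, adjusted p = 0.221. In arterial ECs Adult 1, 1 of the 2 Adult units, held 13 cells, with 3 UMIs of Mfsd2a and 43 of Cav1. Cav1 was at 961 and 990.2 CPM in Juvenile arterial ECs and at 658 and 580.4 CPM in Adult ones (0.61, SE 0.20, adjusted p = 0.0403), while in CapV it was lower than in Adult (−0.35, SE 0.12, adjusted p = 0.0385). The arterial call was lost with 6 units (0.307), with DESeq2 (0.215) and without Adult 2 (0.0643), Aged 1 (0.134), Aged 2 (0.131), EAE 1 (0.0907), EAE 2 (0.0909), Juvenile 2 (0.1) or Juvenile 4 (0.0625), and the CapV call with 6 units (0.161), with DESeq2 (0.138) and without Aged 1 (0.0651), Aged 2 (0.0644), EAE 1 (0.0887) or EAE 2 (0.0889). Cav2 was lower in Juvenile CapV ECs (−1.31, SE 0.13, adjusted p = 7.07e-06) but was at 827 and 876 CPM in Juvenile and 826 and 618 CPM in Adult arterial ECs (0.24, SE 0.20, adjusted p = 0.529). The venous/REV minus arterial difference of Cav2 was lower in Juvenile than in Adult (−0.79, SE 0.23, adjusted p = 0.0253), 1 of 6 members against 2.52% of genes, a call that was lost with 6 units (0.115), with no block (0.269), with no filter (0.0595) and without Adult 3 (0.271), Aged 1 (0.0513), Juvenile 1 (0.249) or Juvenile 4 (0.0516). Insr was higher in Juvenile CapA ECs (1.02, SE 0.16, adjusted p = 0.000143) and was not called in CapV (adjusted p = 0.994). The CapA call was lost in score bins (0.46, adjusted p = 0.056) and without ECs with 2 markers of another type (0.68, adjusted p = 0.448), which also ended the arterial call of Mfsd2a (0.413) and the CapV call of Cav1 (0.262). The arterial call of Cav1 was lost in score bins (0.256), with no filter (0.168), over 1000 genes per cell (0.0544) and without ECs with fenestrated markers (0.108), and the CapV call of Cav1 with no filter (0.0645). In all, 2 of 4 members were called in arterial (9.32% of genes), 2 of 5 in CapA (19.6%), 3 of 5 in CapV (31.2%) and 0 of 5 in venous/REV ECs (8.73%), where Mfsd2a had an unadjusted p under 0.05 and DESeq2 called none. In the venous-end score bin, which is mostly other ECs, Cav2, Mfsd2a and Insr were called (adjusted p = 6.8e-07, 0.000358 and 0.0442). Cav2 was called lower in the CapA bin (1.76e-05) and in CapA ECs at resolution 0.9 (0.0284). It was also called there without Adult 1 and Juvenile 1 and 2, which leaves 1 unit in Adult and 1 in Juvenile.

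Aged ECs had 2 such calls. Cav1 in CapV was at 449 and 463 CPM against 295 and 314 CPM (0.57, SE 0.12, adjusted p = 0.0197), 1 of 5 members against 3.21% of genes, and was not called with 6 units (0.416), in score bins (0.0506) or without Aged 1 (0.165), Aged 2 (0.192), EAE 1 (0.0538) or EAE 2 (0.0541). Mfsd2a in CapA was at 302 and 292 CPM against 384 and 408 CPM (−0.47, SE 0.12, adjusted p = 0.0463), 1 of 5 members against 3.03% of genes, and was not called with 6 units (0.815), with DESeq2 (0.127), with no filter (0.116), over 1000 genes per cell (0.0662), at resolution 0.9 (0.0523), in score bins (0.0665), without ECs with 2 markers of another type (0.401) or without Adult 2 (0.0576), Aged 1 (0.462), Aged 2 (0.453), EAE 1 (0.181), EAE 2 (0.179), Juvenile 1 (0.0506) or Juvenile 3 (0.0549). Without Adult 1 and Juvenile 1 and 2 Cav1 (0.00058), Cav2 (0.0424) and Insr (0.013) were called higher in CapA, Cav2 higher (9.26e-05) and Mfsd2a lower (9.27e-06) in CapV, and with 11 libraries Cav1 in CapA (0.0466) and Mfsd2a in CapV (0.0228) were called as well. Mfsd2a in CapV was also called without ECs with 2 markers of another type (0.0151), and Cav1 in venous/REV ECs in score bins (0.022). In arterial (1.15% of genes) and venous/REV ECs (0.856%) edgeR and DESeq2 called 0 members, and 0 had an unadjusted p under 0.05. For the difference between the ends edgeR and DESeq2 also called 0 of 6 (0.0598% of genes), and Cav1 (0.59, SE 0.22, adjusted p = 0.459) was the 1 member with an unadjusted p under 0.05.

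Plvap was in few ECs. Its 1027 UMIs came from 147 of 21165 ECs, and 47 cells with 6 or more UMIs held 87.4% of them. ECs with a UMI of at least 4 of 6 markers of fenestrated ECs, a limit set after the values were seen, were 154 cells and held 78.8% of the Plvap UMIs. A few of these cells carried that share, since 35 of them, among the ECs set apart below for markers of a second class, held 738 UMIs, while 58 arterial and 39 CapA ECs of the 154 held 8 and 11. Juvenile 1 and 2 held 481 and 283 UMIs and Juvenile 3 and 4 held 39 and 93, so the 2 Juvenile units were far apart. Adult 1 had 15 UMIs, 12 of them in 1 cell, and Adult 2 and 3 had 4 and 3. EAE 1 had 3 UMIs and EAE 2 had 69, of which 1 cell held 26.

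**Figure D4:**
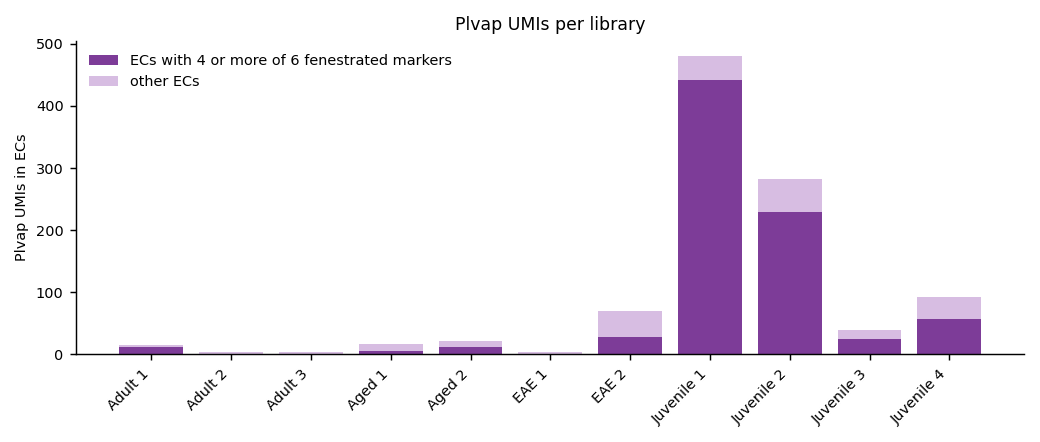
Number of Plvap UMIs in the ECs of each library (bars), split into ECs with at least 4 of 6 fenestrated markers (dark) and other ECs (light). Juvenile 1 (481) and Juvenile 2 (283) stand above all other libraries, and most of their UMIs are in cells with fenestrated markers.

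Most Plvap UMIs were in ECs off the axis. A cluster of 46 cells, led by Igfbp3, Cd24a and Ppap2b, held 781 of them (3437 CPM). Its score for fenestrated markers was 3 SD over the mean of the clusters, and because its score for astrocyte markers was 2.05 it was set apart with the clusters that hold markers of a second class. On the axis, arterial ECs held 46 Plvap UMIs in 712 cells, CapA 29 in 4057, CapV 18 in 6787 and venous/REV ECs 84 in 382, of which 44 were in Juvenile 1 and 2 and 28 in EAE 2. It was called lower in CapA than in arterial ECs (adjusted p = 0.00606) and higher in venous/REV than in CapV ECs (adjusted p = 2.31e-06). The first was not called without EAE 2 (0.0534) or with no block (0.0874) and had the other direction, without a call, when the clustering ran with other arithmetic settings, and the second was not called in score bins (0.64). No fold is given, since most of these sums held 3 UMIs or fewer. In the Adult venous/REV ECs Plvap was at 0 UMIs, which 3 counts place at up to 6.99 CPM. That Adult value is 1 unit and all EAE venous/REV UMIs were in EAE 2, so no comparison of conditions is drawn for Plvap there.

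Across cell types Mfsd2a, Cav1, Cav2 and Insr were genes of ECs, and Lrp1 was not. Against each of microglia (Micro), perivascular macrophages (PVM), mural cells, fibroblasts, astrocytes (Astro) and choroid plexus cells, compared within units, these 4 were higher in ECs, as were 33.8% (Micro), 31% (PVM), 27.7% (mural), 29.6% (fibroblasts), 35.4% (Astro) and 38.4% (choroid plexus) of all genes. For Mfsd2a the log2 differences ran from 1.404 (Astro, SE 0.40, adjusted p = 0.0022, not called by DESeq2, adjusted p = 0.114) to 4.84 (Micro, SE 0.42), for Cav1 from 1.19 (mural, SE 0.29, adjusted p = 0.000712) to 4.93 (Micro, SE 0.34), for Cav2 from 1.496 (mural, SE 0.25) to 4.30 (Micro, SE 0.27) and for Insr from 1.33 (choroid plexus, SE 0.18) to 2.42 (Micro, SE 0.20). Mural cells, which also form caveolae, were at 144 ± 75.9 CPM for Cav1 and 164 ± 76.4 CPM for Cav2 (n = 8 units), against 306 ± 111 and 431 ± 192 CPM in ECs. Called were 6 of 6 tested members against Micro (61.5% of 13570 genes) and PVM (54.7%), and 5 of 6 against mural cells (45.7%), fibroblasts (50%), Astro (61.8%) and choroid plexus (72.4%).

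Mfsd2a in Astro differed between conditions. It was at 546 and 576 CPM in EAE, from 54 and 55 UMIs, against 49.5 to 165.5 CPM in the other 6 units, and the EAE values were above those of EAE ECs (213 and 218.5 CPM). EC markers summed to 1022 and 2126 CPM in these EAE Astro, against 26560 and 26620 CPM in EAE ECs and up to 4178 CPM in Astro of other conditions. Astro between conditions were not tested.

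Lrp1 was lower in ECs than in all 6 types, from −3.38 (PVM, SE 0.19, adjusted p = 3.29e-22) to −5.03 (fibroblasts, SE 0.21, adjusted p = 6.24e-28). Its level was 320 ± 116 CPM in fibroblasts, 178 ± 44.1 in Astro, 177 ± 46.9 in Micro, 174 ± 50.8 in mural cells and 7.385 ± 2.88 CPM in ECs (n = 8 units). B cells (5.98 ± 4.94 CPM) and T and NK cells (6.14 ± 4.13 CPM) were near the EC level. Ager was at 1.31 ± 0.78 CPM in ECs, 5.30 ± 4.84 CPM in mural cells and 19.1 ± 8.4 CPM in ependymal cells (n = 4 units), the last on 41 UMIs. Plvap was called higher in ECs than in Micro (1.96, SE 0.63) and PVM (2.91, SE 0.92), though not without ECs with fenestrated markers (adjusted p = 0.564 and 0.152) or without second-class ECs (0.428 and 0.112). Without ECs with fenestrated markers it was called lower than in choroid plexus cells (−1.51, adjusted p = 0.00133) and than in fibroblasts (−1.501, adjusted p = 0.0429). ECs with fenestrated markers held 809 of the 1027 Plvap UMIs of ECs, and second-class ECs held 782. Leaving out either group therefore lowers Plvap in ECs by construction. Against mural cells Plvap was called higher with 11 libraries (0.00963), over 1000 genes per cell (0.0382) and without Adult 3 (0.0158). With all ECs it was not called against fibroblasts (0.30, SE 0.83), in which it was at 13.5 ± 18.1 CPM against 12.65 ± 25.6 CPM in ECs.

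**Figure D5:**
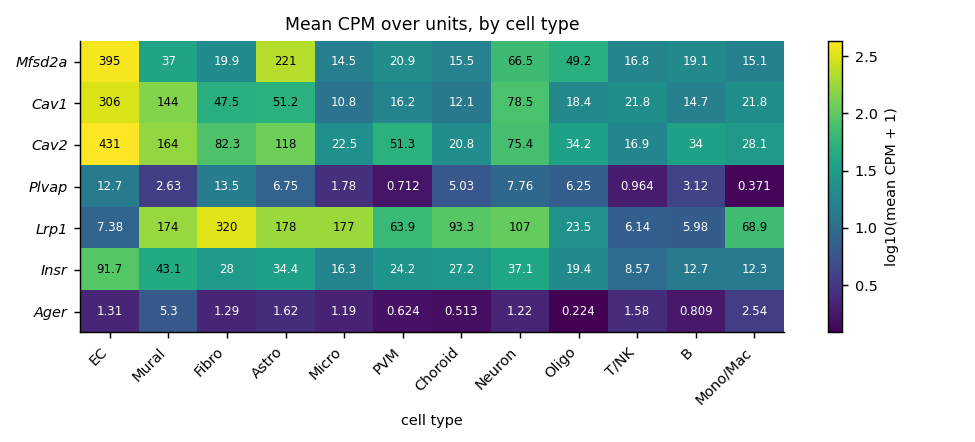
Mean CPM of each gene over units in ECs and 11 other cell types, with the colour on a log10 scale of CPM plus 1 and the CPM printed in each field. ECs have the highest mean of Mfsd2a (395), Cav1 (306), Cav2 (431) and Insr (91.7), and Lrp1 is highest in fibroblasts (320) and low in ECs (7.385).

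The summed values were also visible as shares of cells. Each EC was thinned to 1500 UMIs, and ECs with fewer were left out, so these are not shares of all ECs. Among the ECs kept, Mfsd2a was found in 40.6 ± 0.5% of Adult, 57.5 ± 7.4% of Juvenile, 32.5 ± 0.4% of Aged and 25.5 ± 1.1% of EAE ECs. Cav2 was in 57.5 ± 0.6%, 33.4 ± 1.0%, 62.1 ± 1.5% and 32.35 ± 1.9% of them, Cav1 in 35.9 ± 3.2%, 31.2 ± 0.7%, 45.9 ± 1.6% and 21.8 ± 0.6%, and Insr in 9.91 ± 0.23%, 11.0 ± 0.7%, 10.9 ± 0.1% and 17.3 ± 1.0%. In Micro, thinned the same way, Mfsd2a, Cav1 and Cav2 were each found in 0.49% to 5.47% of cells per unit and Insr in 1.53% to 3.605%. Lrp1 was found in 0.57% to 2.27% of ECs and 16.5% to 30.8% of Micro. The exact permutation test of 2 against 2 units cannot give a p below 0.333, so none of these shares could be called. Unthinned, the shares for Adult, Juvenile, Aged and EAE were 63.5%, 84.7%, 44.7% and 37.8% for Mfsd2a, 61.2%, 70.5%, 60.1% and 33.6% for Cav1, 81.3%, 74.7%, 75.9% and 48.8% for Cav2, and 23.5%, 39.0%, 18.7% and 30.2% for Insr. The median EC had 2256 to 3690.5 UMIs per unit in Aged, EAE and Adult and 5408 or 7717.5 in Juvenile.

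Over the 31 sums of a subtype in a unit, the genes most like each member were found among those of at least 50 mean CPM, as a description, since these sums share libraries. Mfsd2a was most like Slco1c1 (Pearson r 0.914 of log2 CPM), a thyroid hormone transporter, Vwa1 (0.913) and Bsg (0.888), a chaperone of monocarboxylate transporters. Cav1 was most like Ehd2 (0.903), the angiopoietin receptor gene Tek (0.878) and Adam15 (0.873), and Cav2 like Anxa5 (0.917), Afap1l2 (0.897) and Tek (0.888), while Cav1 and Cav2 had r 0.818 with each other. Among the genes most like Insr were Cflar (0.738) and Fam63b (0.721). Plvap (Ccdc50 0.772, Rbpms 0.729, Limd2 0.698), Lrp1 (Pam16 0.627, Aamdc 0.605, Msi2 0.604) and Ager (Taok1 0.581, Ppp2r2a 0.476, Tmed3 0.463) had their closest genes at these values, on few UMIs.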

How the data were processed

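The deposited files hold UMI counts per gene and cell for 11 libraries. Per the labels the authors made these counts with bcl2fastq 2.19.1.403, UMI-tools 0.5.3, STAR 2.5.3a and featureCounts 1.6.1 on mm10 (the study's methods name later versions of the last 3 tools), and neither the gene annotation nor the use of strand is given in the sources used here. Cells with over 500 and under 6000 genes and under 25% mitochondrial UMIs were kept. They were clustered with Seurat 5.3.0 (2000 variable genes, 12 principal components, resolution 0.5) without the members and the 59 list genes, and clusters were named from marker lists. Only the ECs were then integrated, by anchors between the 4 conditions (30 dimensions). They were clustered again, also with 12 principal components at resolution 0.5 and without these genes. Subclusters of ECs took an axis name at a score of at least 0.5. Scrublet (scanpy 1.11.5) called 764 cells (1.51%) doublets but only 4 and 5 in the Aged libraries, and whether it worked there was not tested. Called doublets were dealt with only in an alternative.

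UMIs were summed per unit (sums of at least 10 cells) and tested by the robust quasi-likelihood method of edgeR 4.0.16 after filterByExpr and TMM scaling, with Benjamini-Hochberg adjustment over all genes, with the unit as a block along the axis and between cell types. SE is the absolute log2 fold change divided by the root of F. On simulated data with 200 genes changed by 1 on the log2 scale, 59% (EAE), 61.5% (Juvenile) and 64% (Aged) of them were recovered in ECs, 86.9% of 198 for CapA against arterial ECs and 0% for the EAE difference between the ends of the axis. These data were drawn with the same dispersion for all genes around 1 pooled profile, so recovery in the real data may differ. The rule named all 7 members in every comparison, the 2 called genes per list with the largest change and at least 50 CPM, and the 3 most alike genes, of which 1 is not reported here. Members and lists were chosen with earlier results of these data known, and the limits for naming clusters, fenestrated ECs (4 of 6 markers) and high Plvap (6 UMIs) were set after clusters and values were seen. Summing near-identical libraries is described with the results. No more than 1.53% of barcodes were shared by any pair of libraries.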

Additional observations from a re-analysis of the deposited data

Results flagged for a closer look

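The Juvenile minus Adult log2 difference of Cav2 was lower at the venous than at the arterial end of the axis, by a test of the difference itself (venous/REV minus arterial −0.7921, adjusted p = 0.0253 in edgeR). The call was lost with 6 units (adjusted p = 0.115), with no block, with no filter on low counts and without Adult 3 (0.271), Aged 1 (0.0513), Juvenile 1 (0.249) or Juvenile 4 (0.0516), and the Adult venous/REV value is 1 unit.

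Cav1 in Juvenile against Adult ECs moved up in both units of arterial ECs (log2 ratio of mean CPM 0.656) and down in both units of CapV ECs (−0.4677). For Cav2 in Juvenile the same ratio was 0.2382 in arterial, −0.2299 in CapA and −1.4273 in CapV ECs. The difference between these subtypes was not tested in either case.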

How the results depend on the processing

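The members' 3386 values over all alternatives kept their side of the threshold in 3192 cases (89 of them uncalled values that changed sign), lost the call in 102, gained one in 85 and reversed in 7. Of 1229 values of list genes 1140 kept theirs, 81 lost the call and 8 reversed. The cause of each change was not tested, unless the setting has fewer samples by its construction. Calls over all genes also moved with the setting, as given below for some of them. A count of member calls in a setting is therefore no result about the members. Calls of members in all ECs went in EAE from 4 to 1 with 6 units and 5 with no filter on low counts, and in Aged from 1 to 0 with 6 units, 3 without Adult 1 and Juvenile 1 and 2 (chosen after seeing the data) and 0 without ECs with 2 markers of another type, which keeps no EC of Adult 1. In Juvenile they went from 2 to 4 with 11 libraries and with no filter on low counts. For CapV against CapA they went from 1 to 3 with no filter, 2 with 11 libraries, DESeq2, over 1000 genes per cell or without doublets, and 0 with no block, in score bins (cells placed by score), without Adult 1 and Juvenile 1 and 2 and without ECs with 2 other markers. Venous/REV against arterial went from 2 to 1 without those ECs and 3 with no filter, in score bins, without ECs with fenestrated markers and without Adult 1 and Juvenile 1 and 2, and venous/REV against CapV from 2 to 1 in score bins and 3 with 11 libraries, no filter and without Adult 1 and Juvenile 1 and 2. The differences between the ends went in EAE from 0 to 1 with 11 libraries, DESeq2, over 1000 genes per cell and without ECs with fenestrated markers and to 3 in score bins, and in Juvenile from 1 to 0 with 6 units, no block and no filter and to 4 in score bins. Within subtypes, Aged went from 2 to 4 with 11 libraries, 0 with 6 units, 7 without Adult 1 and Juvenile 1 and 2, and 1 with DESeq2, no filter, over 1000 genes, resolution 0.9 and score bins, EAE from 11 to 5 without ECs with 2 other markers, where the 3 calls in venous/REV ECs could not be fitted, and Juvenile from 7 to 4 with DESeq2 or without those ECs and 12 in score bins.

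Leaving out 1 library gave 3 to 4 member calls in EAE, 2 to 3 in Juvenile and 0 to 1 in Aged ECs, 2 to 3 for CapA against arterial, venous/REV against CapV and venous/REV against arterial, 0 to 2 for CapV against CapA, 0 to 1 for the EAE and Juvenile differences between the ends, 5 to 6 against mural cells, and within subtypes 9 to 13 (EAE), 6 to 8 (Juvenile) and 0 to 2 (Aged). The shares over all genes in these fits are not given here, so these counts are no result about the members.

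Over all genes, calls on the axis (2775, 1740, 2407 and 2711 in the order of its steps, with venous/REV against arterial last) were 1206, 383, 1030 and 1632 with no block and 905, 620, 210 and 403 without ECs with 2 other markers, and the 2nd and 3rd were 103 and 452 in score bins. The Aged count of 513 ran from 2 with 6 units to 4267 without Adult 1 and Juvenile 1 and 2, and the Juvenile count of 5002 fell to 2731 with 6 units.

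In score bins, where the subtype names stand for bins and not for the clusters, these values reversed: Insr in Juvenile arterial (0.81) and Cav1 in Juvenile CapA ECs (−0.57), Ap2a2 (−0.0434), Apoe (−0.0511) and Vamp3 (−0.0140) for CapA against arterial, Hip1 (−0.0508) and Slc3a2 (−0.0127) for CapV against CapA, Apoe (−0.12) and Mfsd2a (−0.54) for venous/REV against arterial, Mfsd2a in EAE venous/REV ECs (−0.76), and in the difference between the ends Mfsd2a in EAE (−0.41) and Insr in Juvenile (−1.265). Without ECs with 2 markers of another type Lrpap1 reversed for CapA against arterial (0.0196) and Vamp3 for venous/REV against arterial (0.0275), and without ECs with fenestrated markers Plvap did against fibroblasts (−1.501). ECs with fenestrated markers held 809 of the 1027 Plvap UMIs of ECs, so that setting lowers Plvap by construction. Unthinned shares reversed for Cav1 in Juvenile (9.365 percentage points), Cav2 in Aged (−5.47) and Insr in Aged (−4.83).

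The placement of ECs in subclusters depended on the arithmetic settings of the clustering. On a single thread, as reported, it was the same each time, and with several threads it differed. There the EAE difference of Cav1 between the ends was called, Mfsd2a in CapA in EAE and Aged was not, Plvap had the other direction for CapA against arterial, without a call, and was called lower in CapV than in CapA.

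Replicate numbers did not pair the libraries (13 pairs, r from −0.12 to 0.352, 2 over 0.1). With the replicate block over 11 libraries 4 members were called in EAE, 4 in Juvenile and 1 in Aged ECs, and 4567, 6100 and 1404 genes in all.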
